A study of Sus scrofa with 22 samples.

Results

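The cytosolic ribosomal proteins are described here across 39 cell groups of the early pig embryo and of a stem cell derived from it. Members were taken by name: every row of the deposited table of group means whose name starts with RPL or RPS and a number, or is RPSA, without the names that start with RPS6K, which are kinases and not parts of the ribosome. This gave 64 of 25749 rows, 38 named for the large subunit (RPL) and 26 named for the small subunit (RPS and RPSA), and it left out 10 RPS6K rows. The rule uses names alone, though it was set with earlier results of these data known. The names include 6 paralogues, copies of a ribosomal protein gene with a close partner: RPL3L, RPL7L1, RPL10L, RPL26L1, RPL36AL and RPS27L. For 44 members the reference gives the same name to the identifier that the row was paired with, and 18 identifiers carry no name there. The identifier paired with RPL22 is named ICMT in the reference, so its values are uncertain, and RPL36A-HNRNPH2 is the identifier of RPL36A. By the RefSeq table of build Sscrofa11.1, 63 members lie on 17 chromosomes, 3 of them on X. Ribosomal protein genes that the rule did not take were not analysed as members.

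The ribosome joins a small subunit, which reads the messenger RNA, to a large subunit, which forms the peptide bond. Each subunit is ribosomal RNA with its set of proteins, which are made in the cytoplasm, imported into the nucleolus and assembled there by dedicated factors. Messenger RNAs of ribosomal proteins carry a pyrimidine tract at their 5′ end, through which the kinase mTOR and the protein LARP1 set their translation. An oocyte stores messenger RNA and ribosomes, and the embryo lives on these stores until its own genome is activated during cleavage.

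Polyadenylated RNA was read cell by cell with a barcoded form of Smart-seq2, in 20 libraries of pig embryos before implantation (P1 to P20, embryonic days 0 to 14) and in 1 library each of pgEpiSC_high and pgEpiSC_low, pluripotent lines made from epiblast of E10 before gastrulation. What high and low stand for, the breed, and which cells came from which embryo are not given in the labels. The authors' 37 embryonic groups are Oocyte, Zygote, 2C, 4C, 8C and Morula_E4, then preICM_E5, preTE_E5, ICM_E6 and TE_E6, then Epiblast, Hypoblast and TE of E7 to E10, and from E11 to E14 Ectoderm, Mesdoderm (spelled as the authors spell it), Endoderm or Defi_Endoderm, and TE (E12 to E14), where ICM is the inner cell mass and TE the trophectoderm. There were 1647 cells, 1458 of them embryonic, with a median of 274531 counts and 9120 detected genes per cell, and library totals ran from 7415760 to 39405309 counts.

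Tests used sums, meaning the counts of all cells that share a group and a library, of which 67 entered. Nothing in the labels ties a library to its own embryos, so a p-value here measures only how far sums differ, which may be technical. Only RNA with a poly(A) tail was counted, so tail length and RNA amount cannot be told apart. Several libraries stand apart. All Oocyte and Zygote cells come from P1, which also holds 2C, 4C and Morula_E4 cells, and 8C cells come from P19 and P20 alone. The 4C sums of P1 and P13 differ: the members took 2.90% of the counts in P1 and 1.48% in P13, where single cells ran from 0.886% to 5.84%. All 96 cell barcodes occur in more than 1 library. Labels were checked against defining markers: the summed CPM (counts per 1000000 counts to pig genes) of POU5F1, SOX2 and NANOG was 531 to 724 in the Epiblast groups, 65.5 to 198 in the Hypoblast groups and 18.4 to 115.5 in TE_E7 to TE_E10. In TE_E6 it was 286 CPM, above every Hypoblast group. In Ectoderm_E14 that sum was 69.5 CPM and the sum of 5 fibroblast genes 519 CPM, which was 554 CPM in TE_E14. CDX2, GATA3, TFAP2C, KRT8 and KRT18 summed to 4480 to 5846 CPM in TE_E6 to TE_E10. In TE_E12, TE_E13 and TE_E14 they summed to 2967, 3619 and 1631 CPM. Defi_Endoderm_E13 had 3922 CPM, and Mesdoderm_E14, Defi_Endoderm_E14 and Ectoderm_E14 had 2834, 2072 and 1624 CPM. These markers thus do not set TE_E13 and TE_E14 apart from all other groups of their day.

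Ribosomal protein genes took little of the counts up to the 8-cell stage and a larger part from the morula on. In the 8 sums from Oocyte to 8C the 64 members together held 0.568% to 2.90% of all counts to pig genes, with a median of 0.968%. In the 57 embryonic sums from Morula_E4 on they held 4.16% to 8.86%, with a median of 5.98%, so the ranges do not overlap. Over all cells of a group the share was 1.04% in Oocyte, 2.38% in Zygote, 0.671% in 2C, 2.58% in 4C, 0.718% in 8C and 5.32% in Morula_E4. It thus moved up and down before the morula, lowest in 2C and 8C. Within the library P1 alone the values were 1.04% in Oocyte, 2.38% in Zygote, 0.568% in 2C, 2.90% in 4C and 5.09% in Morula_E4. Within P19, the 8C cells had 0.899%, while the groups of E13 in that library had 5.79% to 7.04%.

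**Figure D1:**
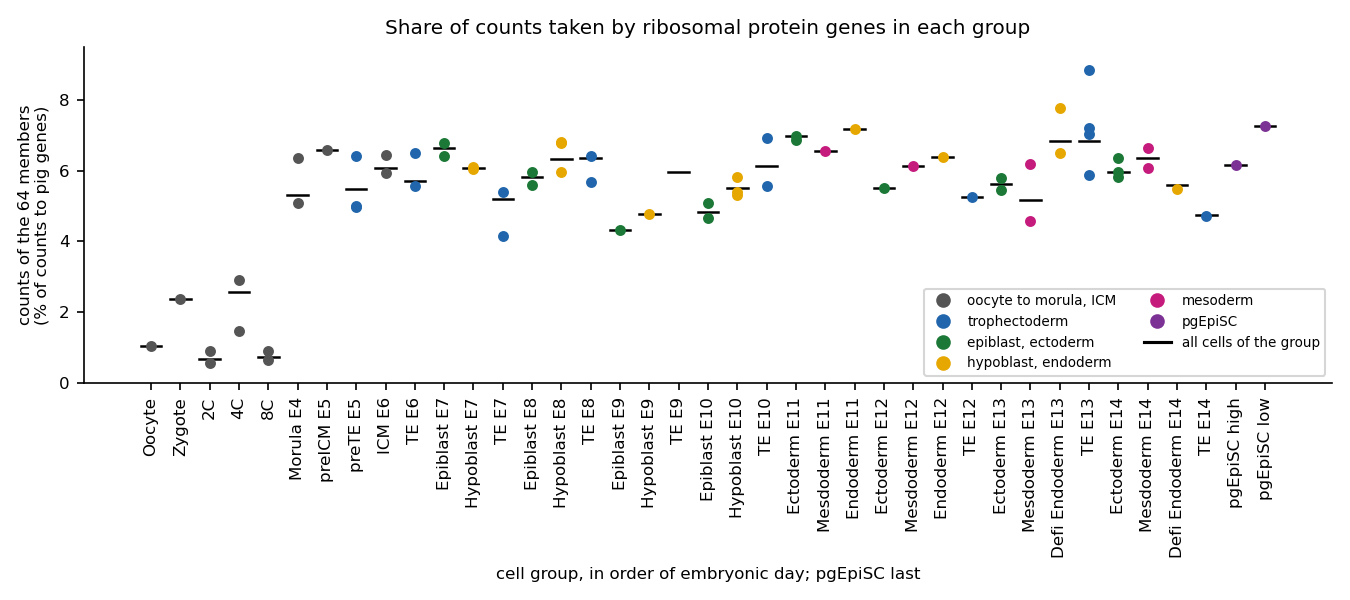
Counts of the 64 ribosomal protein genes as a percentage of counts to pig genes (y axis, linear) in each cell group (x axis, by embryonic day, pgEpiSC last). Each point is the sum of 1 library in a group and the black line is all cells of the group; the sums from Oocyte to 8C lie at 0.568% to 2.90%, and the embryonic sums from Morula_E4 on at 4.16% to 8.86%.

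In the deposited means, which average log2(CPM/10 + 1) over cells, 8C was lowest. The median of the 64 members was 4.45 in Oocyte, 5.30 in Zygote, 3.18 in 2C, 5.58 in 4C, 2.35 in 8C and 6.56 in Morula_E4. Of the members, 47 had their lowest deposited mean in 8C and 15 in 2C. The median standard deviation over cells, also deposited, was 0.98 in 8C and 0.40 in Morula_E4. The 8C cells had lower levels and came from 2 libraries that differ, and the part of either in this spread was not tested. A median of 60 of the 64 members was detected per 8C cell, with 33 in the lowest cell. Against spike-in RNA in place of pig genes, members had 2.965 counts per spike-in count in Oocyte, 1.96 in Zygote and 1.58 in 2C. The value was 3.05 in 4C, 0.706 in 8C and 5.30 in Morula_E4, the highest embryonic group. Later embryonic groups ran from 0.720 in TE_E9 (2 cells) to 3.90 in Hypoblast_E10. Unlike by share, the groups up to 8C and those from the morula on thus overlap in counts per spike-in count. The libraries went opposite ways from 2C to 4C: 1.77 to 4.72 in P1, but 1.39 to 0.897 in P13. On that scale 8C stood below 2C, whereas by share it stood slightly above it.

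Both subunits moved together. Small subunit members held 41.7% to 45.9% of all member counts over the 67 sums, from the lowest share to the highest. Over all groups, 58 members had a count in over 99% of all cells and 62 in over 95%. The exceptions were RPL3L, detected in 28.8% of cells, and RPL10L, in 7.04%. RPS20, a small subunit protein, had the highest summed level over all cells, and RPL10L the lowest. RPSA, a small subunit protein also known as a laminin receptor, had 139 and 72.8 CPM in the 8C sums of P19 and P20, and 853 and 1100 CPM in the Morula_E4 sums of P1 and P2.

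**Figure D2:**
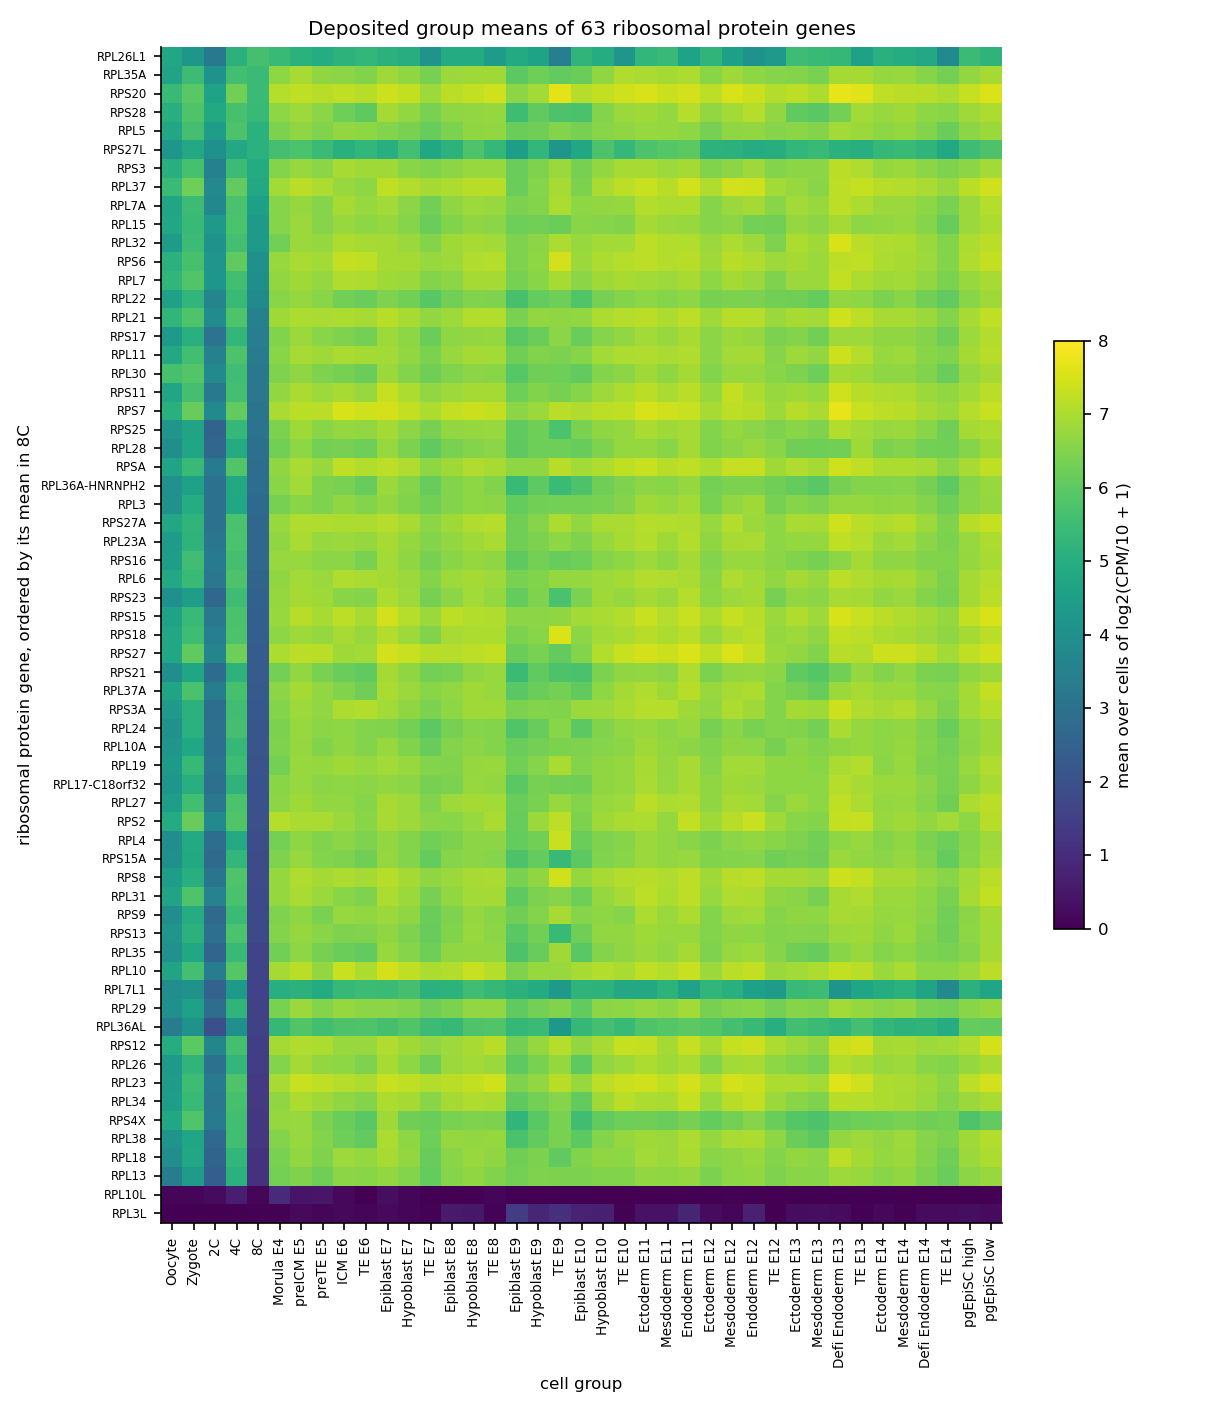
Deposited group means (colour, mean over cells of log2(CPM/10 + 1)) of 63 of the 64 ribosomal protein genes (rows, ordered by their mean in 8C) in the 39 groups (columns, by day). The 2C and 8C columns are dark for most genes, RPL26L1 and a few others at the top stay bright in 8C, and the bottom rows, RPL10L and RPL3L, are near 0 nearly everywhere.

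The first comparison asks what the cleaving embryo gains between the 2-cell and 4-cell stages. Of 64 members, 60 were higher and 0 lower in 4C than in 2C (2 sums against 2, 23 cells against 10), where 4.65% of all 23182 genes tested were called, 4.56% higher and 0.0906% lower. The median log2 change of the members was 1.97, beside 0.00 over all genes. RPL35, a large subunit protein near the exit of the peptide tunnel, had 454 CPM in P1 and 160 CPM in P13 in 4C, against 47.8 CPM in P1 and 85.0 CPM in P13 in 2C. RPL13, another large subunit protein, had 411 and 112 CPM in 4C, against 37.7 and 83.1 CPM in 2C. Both 4C sums stood above both 2C sums for these genes, P1 by far more than P13. RPL35 rose by 2.51 ± 0.36 on the log2 scale (approximate standard error; adjusted p = 3.45e-05, edgeR) and RPL13 by 2.45 ± 0.45 (adjusted p = 0.000223). RPS13 and RPS9, both of the small subunit, rose by 2.38 ± 0.36 and 2.37 ± 0.37. Not called were RPL3L, RPL10L, RPS27L (0.85) and RPS28 (0.87).

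That result rests on the library P1. Without P1 0 of 64 members were called by edgeR (34 at an unadjusted p under 0.05) and 0 of all genes, and without P13 60 members were called. With the library as a replicate block, 60 were called higher, where 3.19% of all genes were called higher. Within P1 all 64 members were higher in 4C than in 2C, with a median log2 ratio of 2.60. Within P13, where 6 cells stand against 2, 62 were higher and 2 lower, with a median of 0.70. Such counts over all genes were not made within these libraries, nor was a count over all genes made at an unadjusted p under 0.05.

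Most members fell at the 8-cell stage. Of 64, 46 were lower and 1 was higher in 8C than in 4C (2 sums against 2, 80 cells against 23), where 11.8% of all genes were called, 7.41% lower and 4.41% higher. The members' median was -1.62 and that of all genes 0.05. RPS4X, the X-linked small subunit protein, had 46.8 CPM in P19 and 12.9 CPM in P20 in 8C, against 557 CPM in P1 and 131 CPM in P13 in 4C. It fell by 3.19 ± 0.42 on the log2 scale (adjusted p = 7.86e-07, edgeR). RPL38, a large subunit protein needed in mice for translation of Hox messenger RNAs, fell by 2.82 ± 0.41. RPL13 fell by 2.49 ± 0.44. RPL26L1, the paralogue of RPL26, went against the rest and rose by 1.10 ± 0.38 (adjusted p = 0.0489).

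No library holds both stages, and leaving out a library leaves a single sum of 1 stage. Over these fits the share of all genes called lower ran in the same order as the members' count. Members called lower numbered 18 without P1, 50 without P13, 44 without P19 and 24 without P20. RPL26L1 lost its call without P1, P13 or P20 (adjusted p = 0.0541, 0.135 and 0.448), and with DESeq2 RPS27L, the paralogue of RPS27, was called higher as well (1.00, adjusted p = 0.0157). Set against 2C in place of 4C, 8C had 12 members higher and 0 lower, where 3.04% of all genes were called higher and 1.09% lower. The members' median was then 0.40, beside 0.24 over all genes.

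In the morula nearly the whole set rose. In Morula_E4, 60 of 64 members were higher and 0 lower than in 8C (2 sums against 2, 30 cells against 80), where 30.4% of all genes were called, 16.6% higher and 13.8% lower. Their median log2 change was 3.26, beside 0.00 over all genes. RPS4X had 941 CPM in P1 and 1077 CPM in P2 in Morula_E4, against 46.8 CPM in P19 and 12.9 CPM in P20 in 8C. It rose by 4.90 ± 0.45 on the log2 scale (adjusted p = 2.03e-11, edgeR). RPL13 had 717 and 809 CPM in Morula_E4, against 66.3 and 9.98 CPM in 8C. RPL38 rose by 4.39 ± 0.44 and RPL13 by 4.19 ± 0.47. The groups do not overlap for any of these 3 genes.

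The rise was uneven among members. RPL35A of the large subunit had 839 and 1134 CPM in Morula_E4, against 344 and 457 CPM in 8C, and rose by 0.95, the least among the members called. RPL5, which carries the 5S ribosomal RNA into the large subunit and can bind MDM2, had 751 and 891 CPM in Morula_E4, against 298 and 358 CPM in 8C. RPS28 had 836 and 1084 CPM in Morula_E4, against 305 and 436 CPM in 8C. RPL5 rose by 0.99, RPS28 by 1.02 and RPS3, at the entry of the messenger RNA channel, by 1.27. Not called were RPL26L1 (-0.34), RPS27L (0.36), RPL3L (0.71) and RPL10L (3.69, adjusted p = 0.0948). Leaving out each of the 4 libraries in turn leaves a single sum of 1 stage. The log2 ratio of the members' share in Morula_E4 over 8C was then 2.56 to 3.15.

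The scaling decides the smallest of these changes. With DESeq2's size factors in place of TMM the median of all genes was -0.47 in place of 0.00 and that of the members 2.73. Then 57 members were higher and 1, RPL26L1, lower (-0.84, adjusted p = 0.0432, edgeR), where 13.4% of all genes were called higher and 18.9% lower. On that scaling RPL35A, RPL5 and RPS28 were no longer called (0.45, 0.48 and 0.52), as they also were not with the members left out of the scaling, and RPS27L turned to -0.14.

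Over a wider span, the 10 sums of Morula_E4, E5 and E6 were set against the 8 sums from Oocyte to 8C (231 cells against 123). Here 63 of 64 members were higher and 0 lower, where 47.7% of all genes were called, 25.0% higher and 22.7% lower. Their median was 3.09, beside 0.09 over all genes. RPL13 rose by 3.70 ± 0.26, RPL18 by 3.56 ± 0.26 and RPL23 by 3.49 ± 0.26 (adjusted p = 3.11e-17, 1.55e-16 and 4.23e-16, edgeR), all proteins of the large subunit. RPL3L, a paralogue of RPL3 known from muscle, rose by 4.56 ± 1.15, but at a low level, at most 3.45 CPM in these 10 sums, and it lost its call without P2 and with at least 10 cells per sum (adjusted p = 1.0 in both). For 60 members every later sum lay above every earlier one; the others were RPL10L, RPL26L1, RPL3L and RPS4X. Of the 9963 genes with a mean of at least 10 CPM in these sums, 10.3% lay wholly higher and 18% wholly lower. With 4C left out of the average, 63 were again called, with a median of 3.35.

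Summed CPM of 6 oocyte genes (ZP3, GDF9, BMP15, BTG4, OOSP2 and MOS) was 1936 in Oocyte, 2910 in Zygote and 1642 in 2C. It was 1151 in 4C, 1910 in 8C, 669 in Morula_E4 and at most 51.2 later. The 5 trophectoderm genes named above summed to 101 CPM in 2C, 399 in 4C, 79.9 in 8C and 430 in Morula_E4. On both lists 8C stood nearer to 2C than to 4C, as it did by the members' share. The part of remaining maternal RNA in the members' change was not tested. Within single libraries, 63 of 64 members were higher in Morula_E4 than in 2C in P1 (median log2 ratio 3.48). In P13, 64 were higher in preTE_E5 than in 4C (1.81), and in P19, 63 were higher in Ectoderm_E13 than in 8C (3.03). Such counts over all genes were not made for these pairs.

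Each gene was next set against its own later level, the median CPM over embryonic groups from Morula_E4 on, for the 62 members without RPL3L and RPL10L. In the sums the median member stood at 16.4% in Oocyte, 38.5% in Zygote, 7.34% (P1) and 14.3% (P13) in 2C, 49.4% (P1) and 24.1% (P13) in 4C, 11.7% (P19) and 5.29% (P20) in 8C, and 85.1% (P1) and 106% (P2) in Morula_E4. By the ratio of the highest to the lowest member, the spread was widest in the 8C sums. By the ratio of upper to lower quartile this held for P20 alone, since the quartiles were 10.2% and 16.8% in 8C of P19 and 6.37% and 11.2% in 2C of P1. In P20 the lowest was RPL23 at 0.744% and 29 members were under 5%, while in P19 none was, the lowest being RPS4X at 6.63%. RPL26L1 was highest in both, at 139% in P20 and 118% in P19.

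A few members stood well above the rest in both 8C libraries, by a limit chosen after their values were seen. Over 20% of their later level in P19 and in P20 were 10 members, 6 of the large subunit (RPL5, RPL7A, RPL15, RPL26L1, RPL35A and RPL37) and 4 of the small subunit (RPS3, RPS20, RPS27L and RPS28). The order of the 62 members was alike in the 8C sums of P19 and P20 (Spearman 0.83, across genes, which are not independent) and in the 2C sums of P1 and P13 (0.70), and between 2C and 8C it was 0.60 to 0.72. In 4C the order of P13 was close to that of 2C in the same library (0.81), which was less so in P1 (0.45), whereas the orders of P1 and P13 had little in common (0.09). Of these pairs, only those of 2C with 4C share a library. Depth differed as well, with median cell totals from 274054 counts in 4C of P13 to 1058960 in 2C of P13. In single 8C cells, RPL26L1 was detected in 100% of 80 cells, RPS4X in 86.3%, RPL26 in 78.8%, RPL13 in 77.5% and RPL18 in 70.0%.

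**Figure D3:**
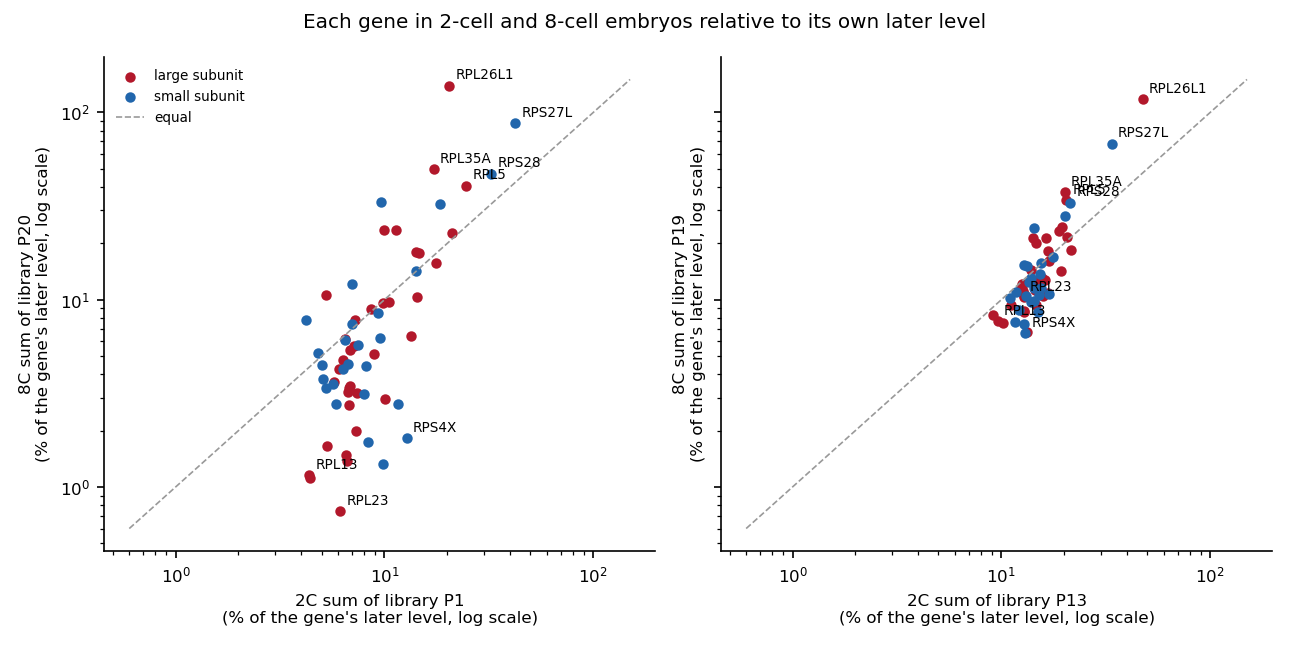
Level of each of 62 ribosomal protein genes in a 2C sum (x axis) and an 8C sum (y axis), as a percentage of the gene's own later level on log axes; left, 2C of P1 and 8C of P20, right, 2C of P13 and 8C of P19. In both panels RPL26L1 and RPS27L lie highest on the y axis, and in P20 RPL23 and RPL13 lie near 1%.

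Other genes of the translation machinery were counted from fixed lists. In Morula_E4 against 8C, 16.6% of all genes were called higher and 13.8% lower. Of the ribosomal proteins outside the name rule, RPLP0, RPLP1 and RPLP2 of the ribosomal stalk and RACK1, a scaffold on the small subunit, 4 of 4 tested were higher in Morula_E4 than in 8C (median log2 change 2.62). Among 13 translation factors tested, 11 were higher and 1 lower (median 2.62). EIF3F, a subunit of initiation factor eIF3, rose by 6.29 ± 0.64, EEF1D, of the elongation factor exchange complex, by 4.99 ± 0.51 and PABPC1, the poly(A) binding protein, by 4.92 ± 0.49, while BTF3, of the nascent chain complex, fell by 1.07 ± 0.29. Ribosome biogenesis genes numbered 11 higher and 0 lower of 19 (median 1.54): BOP1, for large subunit assembly, rose by 5.54 ± 0.84, NOP2, a ribosomal RNA methyltransferase, by 4.55 ± 0.65, and FBL, fibrillarin, by 4.33 ± 0.60. Among 12 regulators 5 were higher and 0 lower (median 1.42), of which MYCN, a transcription factor of growth genes, rose by 4.28 ± 0.71, TSC2, an inhibitor of mTOR signalling, by 3.28 ± 0.72 and YY1 by 2.82 ± 0.51.

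In 8C against 4C most calls in these lists were lower, where 7.41% of all genes were called lower and 4.41% higher. Of 19 biogenesis genes 9 were lower and 1, NPM1 or nucleophosmin, higher (1.45 ± 0.32), of 13 translation factors 8 were lower and 2 higher, and of 12 regulators 4 were lower and 0 higher. In 4C against 2C, 7 biogenesis genes, 9 translation factors and 3 regulators were higher and none of these lists held a lower call. There 4.56% of all genes were called higher. MYC rose there by 4.43 ± 1.02 and MYCN by 3.75 ± 0.71.

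Some paralogue pairs differed in 8C. RPL26L1 lies at chr16:51267492-51276692 and RPL26 at chr12:53548313-53553453 of Sscrofa11.1. RPL26L1 had 418 CPM in P19 and 493.5 CPM in P20 in 8C, while RPL26 had 105 CPM in P19 and 14 CPM in P20. As a percentage of RPL26, RPL26L1 was thus 399% and 3525%. RPL26L1 also lay above RPL26 in Oocyte, in both 2C sums and in 4C of P13, so this order was not particular to 8C. In the 8 sums from Oocyte to 8C the log2 ratio of RPL26L1 to RPL26 ran from -0.65 to 5.04 (median 0.48), and in the 59 later sums, pgEpiSC included, from -2.48 to -0.37 (median -1.46). RPL26 rose by 3.88 on the log2 scale in Morula_E4 over 8C, whereas RPL26L1 had 434 and 475 CPM in Morula_E4, against 418 and 493.5 CPM in 8C. These are counts per gene and not per length, so the ratios are read across sums and not as which gene is the more abundant.

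RPS27L, which the tumour suppressor p53 can induce in human cells, lies at chr1:108881330-108886334 and its partner RPS27 at chr4:95697869-95699481. The 8C sums held 279 and 358 CPM of RPS27L and 126 and 40.9 CPM of RPS27 in P19 and P20. RPS27L lay above RPS27 in Oocyte and in 2C of P1 as well. The log2 ratio of RPS27L to RPS27 ran from -1.53 to 3.10 up to 8C and from -3.11 to -0.92 later. The other pairs showed no such turn. RPL7L1 to RPL7 ran from -2.76 to -0.63 up to 8C and from -2.43 to -0.80 later, and RPL36AL to RPL36A-HNRNPH2 from -1.66 to -0.32 and from -1.20 to -0.18. RPL7L1 and RPL36AL rose with their partners in Morula_E4 over 8C, by 3.28 and 3.67 (log2).

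RPL10L, a paralogue of RPL10 known from the testis of mice, was highest in Morula_E4, at 22.6 CPM in P1 and 23.7 CPM in P2, and was detected in 53.3% of those cells. It had no count in any sum of Epiblast_E9, Epiblast_E10, Hypoblast_E9 or Hypoblast_E10. Among single sums RPL3L was highest in Defi_Endoderm_E13 of P18 (27.01 CPM, from 15 counts in 5 cells) and next in Epiblast_E9 of P17 (25.3 CPM, from 109 counts), where 85.7% of 7 cells had a count, and it was not detected in Oocyte or Zygote. How reads that match a gene and a near copy were assigned is not stated in the labels, so values of paralogue pairs are uncertain to that extent.

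**Figure D4:**
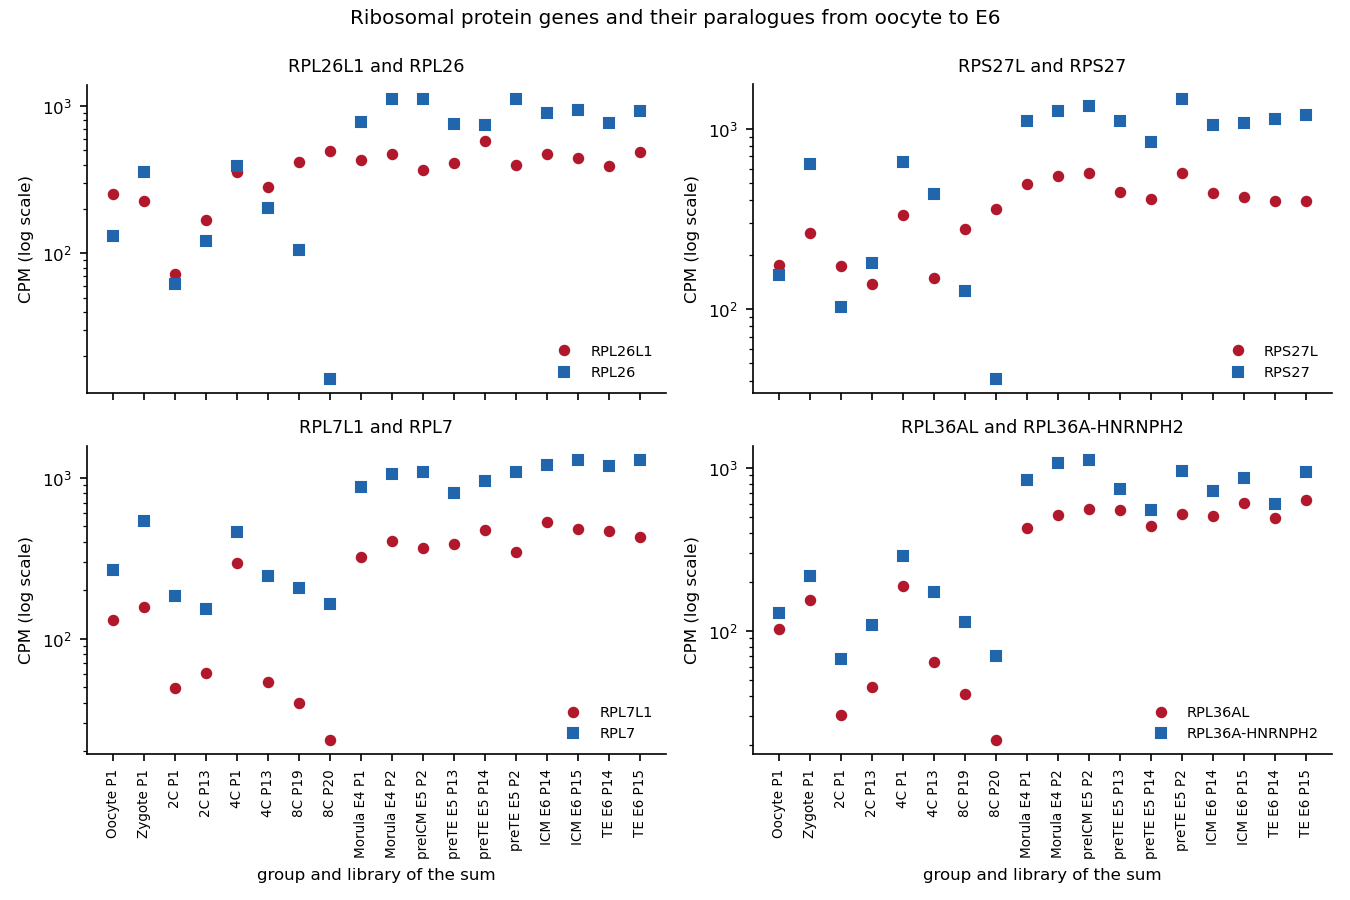
CPM on a log axis of 4 paralogues (red circles) and their partners (blue squares) in each sum from Oocyte to E6 (x axis, group and library). RPL26L1 and RPS27L lie above their partners in both 8C sums and below them in every sum from Morula_E4 on, while RPL7L1 and RPL36AL lie below theirs in every sum shown.

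Later, changes were smaller. Epiblast of E9 and E10 was set against epiblast of E7 and E8 (3 sums against 4, 104 cells against 50). Of 64 members 14 were lower and 0 higher in the later epiblast, where 2.83% of all genes were called, 1.39% lower and 1.44% higher. A negative value was found for 63. The members' median was -0.66, beside 0.02 over all genes. RPS28, a small subunit protein at the messenger RNA exit, had 446, 422 and 548 CPM in P17, P15 and P16 at E9 and E10, against 862, 930, 1052 and 1098 CPM in P4, P5, P8 and P9 at E7 and E8. RPS21 had 428, 418.5 and 555 CPM at E9 and E10, against 801, 771, 994.5 and 1075 CPM at E7 and E8. Every later sum was below every earlier one for both genes, as it was for 41 members, while 1 member lay wholly higher and 22 overlapped. Of the 8982 genes with a mean of at least 10 CPM, 8.35% lay wholly lower and 28.6% wholly higher. RPS28 and RPS4X each fell by 1.36 on the log2 scale (± 0.28 and ± 0.32), RPS21 by 1.26 ± 0.27 and RPL36A-HNRNPH2 by 1.24 ± 0.27, with adjusted p = 0.00325, 0.0128, 0.00497 and 0.00643 (edgeR).

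The early and late epiblast sums share no library, and both depth and library move with this result. Members called lower numbered 13 without P8, 9 without P9 or P16, 8 without P4, 5 without P17, 4 without P5 and 3 without P15. In these fits 0.517% to 1.01% of all genes were called lower. DESeq2 called 34 members (4.45% of all genes lower) and sums of at least 10 cells gave 37 (5.71%). Within groups of at least 20 cells the members' share fell as a cell's depth rose in most groups (Spearman over cells -0.95 to 0.41, median -0.86 over 25 groups). Median cell totals were 513156 to 682629 counts in the later epiblast sums and 181308 to 255739 in the earlier ones. With only cells of 200000 to 600000 counts, a limit chosen after seeing the data, the share was 4.18%, 5.10% and 5.24% in P17, P15 and P16, against 4.91%, 5.67%, 5.97% and 5.83% in P4, P5, P8 and P9. The part of depth in the result was not tested.

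The make-up of member counts also differed by library. Of 62 members, 24 had a lower and 37 a higher median part of all member counts in P14 to P19 than in P1 to P13, and 61 overlapped between these libraries. RPL26L1 had the largest ratio (0.39 on the log2 scale) and RPS28 the smallest (-0.52). In the 18 later embryonic sums of P14 to P19, RPS28 made up 9.07 to 14.4 of every 1000 member counts, against 14.4 to 19.1 in the 39 sums of P1 to P13, a division seen in the data. It held within a group: for preTE_E5 the value was 11.3 in P14, against 17 in P13 and 16 in P2, and for Hypoblast_E10 it was 11.6 in P16, against 15.3 in P5 and 16.1 in P6. With epiblast sums left out, the 10 members lowest in P14 to P19 relative to P1 to P13 were the 10 with the largest fall in late epiblast. All late epiblast sums come from P15 to P17 and all early ones from P4 to P9, so day and library cannot be told apart there.

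In hypoblast, E9 and E10 against E7 and E8 (4 sums against 5, 147 cells against 202), 0 of 64 members were called by edgeR, where 0.427% of all genes were called, 0.129% lower and 0.298% higher. An unadjusted p under 0.05 was reached by 40 members, a limit at which all genes were not counted. The median was -0.52 beside 0.18 over all genes. DESeq2 called 14 members (2.56% of all genes lower, 1.72% higher), and sums of at least 10 cells gave 37 (4.51% lower, 3.52% higher), with all these members lower. Within P5, which holds both days, 63 members were lower and 1 higher in Hypoblast_E10 than in Hypoblast_E8, with a median log2 ratio of -0.34. No count over all genes was made for this pair. The members' share in P5 was 5.32% in Hypoblast_E10 and 6.80% in Hypoblast_E8 over all cells, but 5.95% (8 cells) and 6.07% (21 cells) among cells of 200000 to 600000 counts, where little of the difference was left. RPS28 had 814 CPM in Hypoblast_E10 of P5, against 1025 CPM in Hypoblast_E8 of P5.

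Trophectoderm of E12 to E14 was set against that of E6 to E10 (6 sums against 8, 53 cells against 125). A single member, RPL7L1, was lower and 0 were higher, where 13.2% of all genes were called, 4.31% lower and 8.93% higher, and the members' median was -0.13. RPL7L1, a paralogue of RPL7, had 149 to 365 CPM with a median of 272 in the later sums, against 162 to 532 CPM with a median of 434 in the earlier ones, so the ranges overlap. It fell by 0.92 ± 0.28 (adjusted p = 0.0196, edgeR), and no member was called without P8 or without P12. Within P9, 61 members were higher in TE_E13 than in TE_E7, with a median log2 ratio of 0.51 and no count over all genes to set beside it. That TE_E7 sum has 5 cells and a median cell total of 75643 counts.

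**Figure D5:**
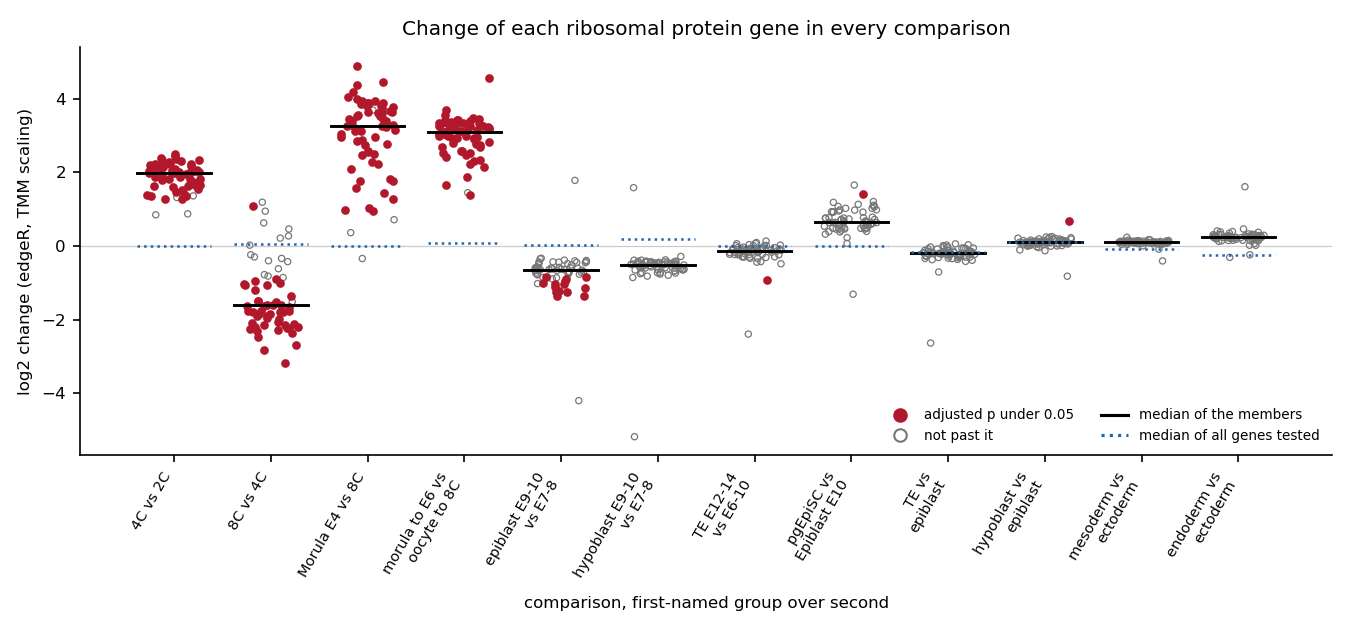
Log2 change of each ribosomal protein gene (y axis, edgeR with TMM scaling) in the 12 comparisons (x axis, first-named group over the second). Red points passed an adjusted p of 0.05 and open ones did not; black lines are the members' medians and blue dotted lines those of all genes, which are 3.26 and 0.00 in Morula_E4 against 8C and -0.20 and -0.16 in TE against epiblast.

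Between lineages of the same library few members were called, with the library as a block in the fit. In P5 the TE and hypoblast cells are of E8 and E10 but the epiblast cells of E8 alone, so the block does not hold the day constant there. For TE against epiblast (4 libraries) 0 of 63 members were called by edgeR or DESeq2 and 0 had an unadjusted p under 0.05 by edgeR, where 13.6% of all genes were called (6.06% higher, 7.58% lower), and the members' median was -0.20, beside -0.16 over all genes. Without P9, whose TE sum is 5 cells at a share of 4.16%, that median was 0.04, with 39 members positive and 24 negative, against 4 and 59 with it. For mesoderm against ectoderm (6 libraries) 0 of 63 were called by either tool and 1 at an unadjusted p under 0.05 by edgeR, where 3.10% of all genes were called (1.86% higher, 1.24% lower). Without P18, 46 members reached an unadjusted p under 0.05 and none was called, with a median of 0.19 in place of 0.09. For endoderm against ectoderm (4 libraries) 0 of 63 were called by either tool and 0 at an unadjusted p under 0.05 by edgeR, where 1.81% of all genes were called (1.41% higher, 0.397% lower). Without P11, 4 members were called higher, where 2.41% of all genes were called higher. In that fit 52 members reached an unadjusted p under 0.05, with a median of 0.50 in place of 0.24. Counts at an unadjusted p under 0.05 were made for members alone, so no share of all genes stands beside them. The log2 ratio of the members' share within a library ran from -0.71 to 0.20 for TE over epiblast, -0.25 to 0.16 for mesoderm over ectoderm and -0.21 to 0.51 for endoderm over ectoderm.

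Hypoblast differed from epiblast in 1 member, RPS27L, with 0 lower of 64, where 18.9% of all genes were called, 10.8% higher and 8.14% lower. RPS27L had 516, 385, 519, 548, 534 and 476.5 CPM in the hypoblast sums of P16, P17, P4, P5, P8 and P9, against 306, 245, 282, 459, 346 and 356 CPM in the epiblast sums of the same libraries. It was higher in 6 of 6 libraries and rose by 0.67 ± 0.13 (adjusted p = 0.00237, edgeR). Its partner RPS27 was not called, and the members' median was 0.10, beside 0.11 over all genes. The call on RPS27L was lost with at least 10 cells per sum (adjusted p = 0.108, edgeR) and without the library block (0.0758). Without P9, 8 of 63 members were called higher, close to the 10.1% of all genes called higher in that fit.

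The pgEpiSC lines were set against epiblast of the day they were made from (2 sums against 2, 189 cells against 97). RPS28 was higher in pgEpiSC and no member was lower, where 0.358% of all genes were called, 0.0518% higher and 0.306% lower. RPS28 had 1041 CPM in pgEpiSC_high and 1169 CPM in pgEpiSC_low, against 422 CPM in P15 and 548 CPM in P16 in Epiblast_E10, and rose by 1.41 ± 0.34 (adjusted p = 0.0374, edgeR). A positive value was found for 63 members and an unadjusted p under 0.05 for 29, with a median of 0.66 beside 0.00 over all genes. All genes were not counted at that unadjusted limit. Every pgEpiSC sum lay above every Epiblast_E10 sum for 58 members and below for 1. Of the 9052 genes with a mean of at least 10 CPM, 22.0% lay wholly higher and 44.5% wholly lower, so separation of 2 sums from 2 was common. No member was called by edgeR when any 1 of the 4 libraries was left out (7 to 33 at an unadjusted p under 0.05), while DESeq2 called 8 (0.444% of all genes higher) and sums of at least 10 cells gave 13 (0.863%).

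Depth and library also move with that comparison. The median cell total was 169412 counts in pgEpiSC_high and 136321 in pgEpiSC_low, against 681676 and 513156 in P15 and P16. Shares over all cells were 6.15% in pgEpiSC_high and 7.28% in pgEpiSC_low, against 4.65% and 5.10% in P15 and P16. Among cells of 200000 to 600000 counts they were 5.29% in pgEpiSC_high and 6.26% in pgEpiSC_low, against 5.10% in P15 and 5.24% in P16. RPS28 made up 16.9 of every 1000 member counts in pgEpiSC_high and 16.1 in pgEpiSC_low, inside the range of P1 to P13, and 9.07 and 10.8 in Epiblast_E10 of P15 and P16. The part of depth and library in the RPS28 call was not tested.

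Between pgEpiSC_high and pgEpiSC_low no test was possible, with 1 library each. In pgEpiSC_high, 61 of 64 members were lower and 3 higher, with a median log2 ratio of CPM of -0.24, beside 0.09 over the 11517 genes with at least 100 counts. Among those genes 4871 were lower and 6646 higher. RPS2 had 923 CPM in pgEpiSC_high and 1233 CPM in pgEpiSC_low, and RPS12 1183 and 1536 CPM, both proteins of the small subunit. RPL7L1 went the other way, with 363 CPM in pgEpiSC_high and 290 CPM in pgEpiSC_low.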

How the data were processed

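The authors deposited raw counts per gene and cell for 29214 pig genes and 92 spike-ins (1.80% of all counts) in 1647 cells, together with the mean and the standard deviation of log2(CPM/10 + 1) over the cells of each of 39 groups. All these deposited group values are on that log2 scale, and an embryonic group can hold cells of several libraries. Named in the submitters' processing notes are Sscrofa11.1, UMI-tools, featureCounts 1.6.4 and STAR 2.7.1a, with no role or order. The labels do not say whether counts are molecules or reads.

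Cell names give the library but not the group. The authors' grouping was recovered by least squares of the deposited means on the cells' log2 values; 100% of deposited means and standard deviations were then within 0.002. Rows were paired with identifiers by their 39 means, which succeeded for 25364 of 25749.

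Cells sharing group and library were summed where there were at least 5 (Oocyte 1; Zygote, 2C and 4C 2). The sums were tested in R 4.3.3 with edgeR 4.0.16: filterByExpr, TMM, common and trended dispersion, the quasi-likelihood F-test over all genes, and Benjamini-Hochberg adjusted p under 0.05. All stages were in 1 fit without a block, and lineages were compared within at least 3 libraries, each a block. Standard errors are approximate, the change divided by the square root of F. Printed CPM are of a sum's total, without TMM. Alternatives were DESeq2 1.42.0 as test or for size factors, no filter on low counts, members left out of the scaling, at least 10 cells per sum, the library block or its absence, and each library left out. Added after seeing the data were at least 6000 detected genes per cell (which removed 114 cells), 8C against 2C, 4C left out, and cells of 200000 to 600000 counts. Scripts were tested on simulated data, and ran in Python 3.11.15 (scipy 1.17.1, pandas 2.3.3, numpy 2.4.6; figures, matplotlib 3.10.9).

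Members and lists were chosen with earlier results of these data known. Named were, per comparison and direction, the 4 members with the largest change among those called, those called against the majority, the 6 that deviated most from the members' median over groups, all paralogue pairs, RPSA and the members of highest and lowest level. Members named beside these (such as RPL5, RPS3 and RPS12) were chosen after their values were seen. The values of 1 member are not reported here, and it is counted in every total.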

Additional observations from a re-analysis of the deposited data

Results flagged for a closer look

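In 34 checks for a library far from the others, 5 named members stood out in TE_E13, where chance gives about 1 in 20. Members were checked in TE_E13 alone, as the group with 4 sums, so nothing is known of other groups in this respect. RPL38 had 1521 CPM in P10, against 926.7 to 1027 CPM in the other 3 sums. RPS21 had 1443 CPM in P10, against 931.6 to 942.6 CPM, and RPS28 had 1697 CPM, against 960.3 to 1040 CPM. RPL7L1 was highest in P9, at 365 CPM, against 266.8 to 277.7 CPM in the others. RPL36AL was lowest in P18, at 471.7 CPM, with 573.1 CPM in P10 and 581.7 CPM in P9. The P10 sum holds 7 cells with a median cell total of 76371 counts, and its share of member counts, 8.86%, was the highest of the 67 sums.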

How the results depend on the processing

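Of the named members' 275 values under alternatives, 251 kept direction and call and 24 lost the call. Of 171 values of the counts and shares that answer a comparison, 128 held, 39 moved and 4 reversed. Leaving out each library gave members called from 0 to 60 (4C against 2C), 18 to 50 (8C against 4C), 55 to 60 (Morula_E4 against 8C), 62 to 63 (morula to E6 against cleavage), 3 to 13 (epiblast), 0 to 4 (TE by day), 0 to 0 (pgEpiSC), 1 to 8 (hypoblast against epiblast) and 0 to 4 (endoderm against ectoderm). The share of all genes called moved across these fits as well. With DESeq2 the calls were 34 (epiblast), 14 (hypoblast by day), 2 (TE by day) and 8 (pgEpiSC). Of all genes it called 4.45%, 2.56% and 7.04% lower in the first of these and 0.444% higher in pgEpiSC. Sums of at least 10 cells gave 37, 37, 4 and 13, where 5.71%, 4.51% and 10.2% of all genes were lower and, in pgEpiSC, 0.863% higher. For hypoblast against epiblast they gave 0 members (2.58% of all genes higher), as did no library block (8.25%). DESeq2's size factors gave 1 (hypoblast by day, 0.375% of all genes lower) and 2 (pgEpiSC, 0.0690% higher). No filter gave 1 (0.605%) and 3 (0.201%) in these. Cells of at least 6000 genes gave 3 (0.738%) and 3 (0.0863%), and 4 for TE by day (6.24% of all genes lower). Set against 2C, 8C had 0 members lower. The log2 ratio of shares was 2.89 for Morula_E4 over 8C (3.36 by the median over cells) and 1.94 for 4C over 2C (0.95 per spike-in count). For 8C over 2C it was 0.10 but -1.17 per spike-in count, and -0.31 to 0.42 on leaving out a library (-0.07 without P19). For pgEpiSC over Epiblast_E10 it was 0.47, 1.02 per spike-in count and 0.16 in cells of like depth. The cause was not tested. The library as a replicate block could be fitted among stages for 4C against 2C alone, where 60 members were called. Sums of at least 10 cells left no value for 4C against 2C, TE against epiblast or endoderm against ectoderm. With 1 to 3 libraries in most groups, a spread borrowed from all sums carries each p.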

Other observations

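Other translation genes were called in the later comparisons in small numbers. In trophectoderm of E12 to E14 against E6 to E10, 3 of 19 ribosome biogenesis genes were lower, GAR1 and DKC1 of the particles that modify ribosomal RNA (-0.97 ± 0.28 and -0.86 ± 0.23, edgeR) and BYSL (-0.64 ± 0.23). The transcription factors MYC (-2.06 ± 0.63) and GABPA (-0.99 ± 0.31) were lower as well, and EIF3F was higher (0.99 ± 0.30). In that comparison 4.31% of all genes were called lower and 8.93% higher. In hypoblast against epiblast, 3 of 19 biogenesis genes were higher, where 10.8% of all genes were called higher. They were POLR1A, the large subunit of RNA polymerase I (1.09 ± 0.20), NIP7 (0.65 ± 0.18) and FBL (0.53 ± 0.16). In pgEpiSC against Epiblast_E10 no gene of the translation factor, biogenesis or regulator lists was called by edgeR.

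Among the 4C cells of P13, the members' share over single cells had a median of 3.11%, while their summed share was 1.48%. In P1 the 4C cells ran from 2.20% to 4.52%, with a median of 2.95%. The 8C cells of P20 ran from 0.454% to 1.61% and those of P19 from 0.806% to 0.995%.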
